A study of Mus musculus with 4 samples.

Results

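Of the 5395 H3K27me3 peaks on chromosomes 1 to 19 of mouse pre-B leukemia cells, 523 (9.69%) overlapped a PHF6 peak and no H3K27ac peak, and these are described here. They were chosen by overlap alone, from the presence or absence of peaks in the 3 deposited lists, with at least 1 shared base counted as overlap. They are called PHF6-bound trimethylated peaks, or members, below. The same chromosomes held 76703 PHF6 peaks and 31732 H3K27ac peaks. The other H3K27me3 peaks fell into 927 with both PHF6 and H3K27ac, 232 with H3K27ac alone and 3713 with neither.

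PHF6 is a nuclear protein with PHD-type zinc fingers that is found at chromatin and in the nucleolus, and its gene is mutated in leukemias, most often of the T lineage. H3K27me3 is written by Polycomb repressive complex 2 and marks silent genes, often developmental regulators of other lineages. H3K27ac is the alternative modification of the same lysine, found at active promoters and enhancers, so a single histone tail cannot carry both. Positions with PHF6 and trimethylation but without acetylation are places where a PHF6 peak overlapped a peak of the repressive form of this residue and no acetylated peak was listed.

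The study mapped PHF6, H3K27ac and H3K27me3 by ChIP-seq, in which crosslinked chromatin is captured with an antibody and its DNA sequenced. All libraries came from C57BL/6J pre-B cell leukemia cells that were transformed with the BCR-ABL1 fusion kinase and p19 null, grown in culture and without a treatment contrast. There were 3 ChIP libraries and 1 input library, with 1 library per antibody, so no value has a replicate error and no p-value is given. The input was not analysed here, and the lists come from a population of cells, so a shared position does not show that PHF6 and the mark sat on the same molecule or in the same cell. Gene positions of the build of these lists (mm9) were not used here, so peaks are given by position and cytogenetic band, and lineage marker genes were not examined. Each peak has a score, with a smallest value of 60, and a summit height, the authors' pileup of reads at its highest point. Read totals are unknown, so heights are compared only within the list of 1 antibody. Intervals are 95% exact intervals for shares and order-statistic intervals for medians. They cover counting error only, and neighbouring peaks are not independent.

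By the rule itself, PHF6 was present at 26.9% of all H3K27me3 peaks and at 12.3% (interval 11.4 to 13.4) of the 4236 without H3K27ac. These shares describe the choice and are no result about the members. Just inside the rule, the member on chromosome 3 at 88005370 to 88006860 (band qF1) shared 3 bp with a PHF6 peak and the one on chromosome 5 at 7960743 to 7962241 (qA1) shared 5 bp. The next 3 shared 8, 10 and 13 bp. Just outside, the peak on chromosome 2 at 65074565 to 65075586 (qC1.3) abutted a PHF6 peak with a gap of 0 bp, and the next 4 lay 1, 3, 5 and 6 bp from one. On the side of acetylation, the 5 members closest to an H3K27ac peak lay 5, 7, 24, 32 and 35 bp from it. The 5 PHF6-holding peaks that were left out by the fewest H3K27ac bases had 13, 16, 16, 23 and 27 bp of overlap. On the side of PHF6, 34 of 523 members (6.50%) shared under 100 bp with it. On the side of acetylation, 101 members (19.3%) lay within 1 kb of an H3K27ac peak.

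The H3K27me3 signal of the members was modest and close to that of the list as a whole. Their summit heights ran from 9 to 153, with a median of 16 (quartiles 14 and 22), against 16 (13 and 22) for all H3K27me3 peaks. Peaks with neither PHF6 nor H3K27ac had a median of 15 (13 and 21), those with both 18 (14 and 26) and those with H3K27ac alone 22.5 (16 and 33). Members were somewhat wider than peaks with neither, at a median of 996 bp (interval 948 to 1034) against 876 bp (866 to 894), and narrower than peaks with both, at 1211 bp (1172 to 1262). Wider peaks have more room to meet a PHF6 peak. The share with PHF6 rose from 7.29% (5.64 to 9.25) among the non-acetylated peaks of up to 685 bp to 17.1% (14.7 to 19.9) among those of 1276 bp or more. Among peaks of similar width, heights differed little and in no single direction. Up to 775 bp members had a median of 15 (interval 13 to 16) and peaks with neither 13 (13 to 14). Between 776 and 1051 bp both members (n = 192) and peaks with neither (n = 1219) had a median of 15. Above that width the medians were 18 (17 to 20) and 20 (19 to 21).

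PHF6 summits at the members were slightly taller than at unmarked positions and lower than at acetylated ones. The 523 members were touched by 541 PHF6 peaks: 487 members (93.1%) met 1 PHF6 peak, 36 met 2, and 18 PHF6 peaks touched 2 members each. The tallest PHF6 summit at a member had a median height of 23 (quartiles 19 and 26) and ranged from 14 to 220. The 52993 PHF6 peaks on neither mark had a median of 20 (18 and 23), and the 22256 on H3K27ac alone had 29 (24 and 35). The 478 PHF6 peaks at members that lay off H3K27ac, taken singly, had a median height of 22 (19 and 24). PHF6 peaks at members were wider than unmarked ones, with medians of 1179 bp (interval 1130 to 1276) and 954 bp (951 to 957). For the 478 off H3K27ac the median width was 1120 bp (1067 to 1172). Wider PHF6 peaks also have more room to meet a member. PHF6 peaks off H3K27ac were therefore also compared within 5 equal groups by width. Those at members had a median height 1 unit above the others in the 4 narrower groups (19 against 18 in the narrowest) and 24 against 22 in the widest.

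A small set of members overlapped PHF6 peaks that reached into acetylated chromatin. In 64 of 523 members (12.2%, 9.55 to 15.4) the overlapping PHF6 peak also overlapped an H3K27ac peak beside the member. These PHF6 peaks were wide and tall, with a median width of 2416.5 bp and height of 32.5, against 1148 bp and 22 at the other 459 members. The gap between such a member and the acetylated peak had a median of only 0.317 kb (0.130 and 0.492). The PHF6 peaks covered a median of 37.3% of the member, and the PHF6 and H3K27me3 summits were 1367.5 bp apart. At the other 459 members the PHF6 peak covered a median of 77.1% and the summits were 311 bp apart (interval 259 to 377). A PHF6 peak that meets both a member and an H3K27ac peak beside it must span the gap between them. The large width, short gap, low cover and distant summits are thus in part set by this choice. PHF6 peaks on H3K27ac alone were also taller than those on neither mark, with medians of 29 and 20. Of the 79 members with a PHF6 height of 30 or more, 38 were of the kind that reached H3K27ac. H3K27me3 heights did not separate the 2 kinds, with a median of 16 in both.

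**Figure D1:**
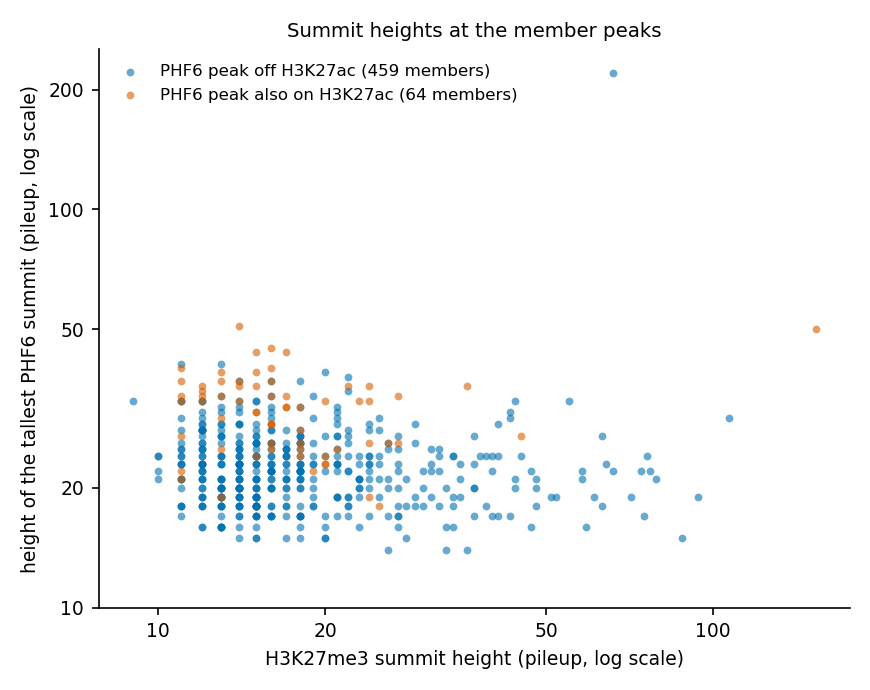
Each point is 1 member, with its H3K27me3 summit height on the x axis and the height of its tallest PHF6 summit on the y axis (pileup, log scales), coloured by whether the PHF6 peak also overlaps H3K27ac. The quartiles of PHF6 height are 19 and 26, the orange points (PHF6 peak also on H3K27ac, median 32.5) lie mostly above the blue ones (median 22), and 1 member with a PHF6 height of 220 stands apart.

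PHF6 height differed little between members of low and of high H3K27me3. Among the 174 members with the lowest H3K27me3 summits (9 to 14) the median PHF6 height was 23, and among the 175 with the highest (19 to 153) it was 22. Spearman's rho over the 523 members was -0.12, as a description of peaks that share libraries. The share of members whose PHF6 peak reached H3K27ac was 10.3% (6.21 to 15.8) in the high group, against 20 of 174 members in the low group. The members with the highest H3K27me3 were wider, with a median of 1173 bp against 898.5 bp.

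Where the 2 peaks lay relative to each other varied. A PHF6 summit fell inside the member in 329 cases (62.9%, 58.6 to 67.1), and the H3K27me3 summit fell inside a PHF6 peak in 359 (68.6%, 64.5 to 72.6). Both held for 281 members and neither for 116. PHF6 covered at least 50% of the member in 372 (71.1%) and the whole member in 115 (22.0%). The summits of overlapping peaks were a median of 421 bp apart (quartiles 128 and 895), with 105 (20.1%) within 100 bp and 114 (21.8%) over 1 kb apart. Peaks with both PHF6 and H3K27ac gave nearly the same summit distance, 431 bp (125.5 and 956.5), and a similar share within 100 bp, 20.4%. Their H3K27me3 peaks were more fully covered by PHF6, at 86.2% (83.8 to 88.3) with at least 50% covered against 71.1% of members.

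The 10 members with the tallest H3K27me3 summits had heights of 71 to 153. The highest, on chromosome 17 at 34132801 to 34135777 (qB1), had height 153 and score 3100 and was touched by 2 PHF6 peaks, the taller of height 50. It lay 70 bp from an H3K27ac peak of height 329, and that PHF6 peak reached the acetylated side. The other 9 of the 10 tallest had PHF6 peaks that stayed off H3K27ac. The second, on chromosome 5 at 91320169 to 91322538 (qE1), had H3K27me3 height 107 and PHF6 height 30, and its nearest H3K27ac peak was 37.1 kb away. Next came the peak on chromosome 15 at 3228950 to 3230720 (qA1), of height 94 with PHF6 at 19, in a PHF6 peak of 525 bp that lay wholly inside it. The fourth, on chromosome 6 at 67155318 to 67156489 (qC1), had height 88, and its PHF6 peak of height 15 and score 60.1 was at the lower limit of the PHF6 list.

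A pair of the 10 tallest were neighbours on chromosome 11 (qA4), at 32183308 to 32184807 and 32196067 to 32197629. Their H3K27me3 heights were 77 and 74 and both had PHF6 at height 22, with summits 131 and 115 bp apart. The others were on chromosome 7 at 71031229 to 71032886 (qC, height 79) and 86278379 to 86279853 (qD3, 71), on chromosome 17 at 57343258 to 57346092 (qD, 76) and on chromosome 6 at 48783506 to 48786803 (qB2.3, 75). PHF6 heights at these 4 were 21, 19, 24 and 17. Apart from the first 2 sites, the 10 members with the strongest trimethylation had PHF6 heights of 15 to 24, around or below the median of 23.

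The tallest PHF6 summits among the members were mostly at the edge of acetylated chromatin. After the site of height 220 described next, the heights were 51, 50, 45, 44, 44, 41, 41, 40 and 40, and in 7 of these 9 the PHF6 peak also overlapped H3K27ac. An example is chromosome 11 at 118911978 to 118913166 (qE2), where an 8034 bp PHF6 peak of height 51 touched the member with 352 bp while its summit lay 6982 bp away. Another is chromosome 12 at 113382075 to 113382869 (qF1), where a 4550 bp PHF6 peak with score 2101.7 covered the whole member. The 2 that stayed off H3K27ac were chromosome 1 at 183948917 to 183949960 (qH5) and chromosome 18 at 83079757 to 83080346 (qE3), both with PHF6 height 41. On chromosome 1 the H3K27me3 height was 13, the summits were 191 bp apart and the nearest H3K27ac peak was 35.0 kb away. H3K27me3 heights at the 8 sites other than the first and the chromosome 17 peak were 11 to 17, around or below the member median of 16.

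The member on chromosome 8 at 19747926 to 19760666 (qA1.3) stood apart in several measures. It was the widest, at 12741 bp against 3902 bp for the next, and had an H3K27me3 height of 66. Its score was 136.9, against 2002.8 at the member of height 77 on chromosome 11. Its PHF6 peak had height 220 with a score of 64.0, against a score of 876.7 at the PHF6 peak of height 41 on chromosome 1. Within 500 kb of it there were 18 PHF6 peaks with a median height of 45 and 4 H3K27ac peaks with a median height of 381.5. Height and score were thus out of step there in both lists, and whether signal shared by all libraries is present was not tested. The other 4 of the 5 widest members were on chromosomes 2 (33489618 to 33493519, qB, 3902 bp), 3 (88282019 to 88285858, qF1, 3840 bp), 17 (45703145 to 45706930, qB3, 3786 bp) and 19 (59539074 to 59542801, qD3, 3728 bp). Their H3K27me3 heights were 22, 36, 41 and 13 and their PHF6 heights 18, 36, 24 and 18. All 4 lay at most 1.15 kb from an H3K27ac peak.

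Although they overlapped no acetylated peak, many members lay close to one. The gap from a member to the nearest H3K27ac peak had a median of 4.80 kb (interval 4.25 to 5.73), against 17.0 kb (15.7 to 18.3) for peaks with neither. An H3K27ac peak lay within 1 kb of 19.3% of members and within 5 kb of 272 (52.0%, 47.6 to 56.4), against 28.0% of all H3K27me3 peaks without H3K27ac and 24.7% (23.3 to 26.1) of peaks with neither. At the other end, 21 members (4.02%) lay over 100 kb from acetylation, against 588 of 3713 peaks with neither (15.8%). Without the 64 members whose PHF6 peak reached H3K27ac, the median gap was 6.00 kb (5.07 to 7.34).

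Seen the other way, the share of non-acetylated H3K27me3 peaks with PHF6 fell with distance from acetylation. It was 29.4% (24.7 to 34.6) of 343 peaks within 1 kb, 20.2% (17.6 to 23.1) at 1 to 5 kb, 11.4% (9.64 to 13.3) at 5 to 20 kb, 7.50% (6.09 to 9.12) at 20 to 100 kb and 3.45% (2.15 to 5.22) beyond. The same order held in the narrow, middle and wide groups of peaks. Within each of them, however, the intervals of neighbouring distance groups overlapped. The exception was 1 to 5 against 5 to 20 kb in the narrow and middle groups. In the wide group, from 1052 bp, the share went from 31.0% (23.6 to 39.2) to 5.04% (2.05 to 10.1).

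**Figure D2:**
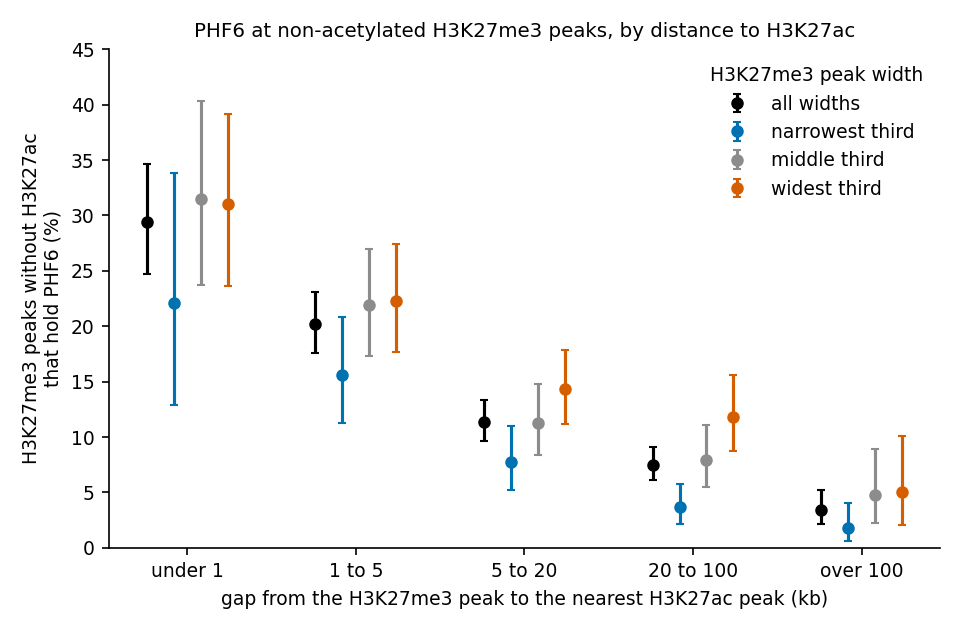
The y axis gives the percentage of H3K27me3 peaks without H3K27ac that hold PHF6, and the x axis the gap in kb to the nearest H3K27ac peak, for all peaks and for 3 equal groups by peak width, with 95% exact intervals. In every width group the share is highest within 1 kb of H3K27ac and lowest beyond 100 kb, from 29.4% to 3.45% for all widths.

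PHF6 itself was dense around the members, and this moved with the distance to acetylation. Within 50 kb on either side a member had a median of 11 other PHF6 summits (quartiles 5 and 18), as did peaks with both PHF6 and H3K27ac (11, quartiles 4 and 19), while peaks with neither had 3 (1 and 6). H3K27ac summits in the same window numbered 4 (2 and 7) at members, 5 (2 and 9) at peaks with both and 2 (0 and 3) at peaks with neither. The share of non-acetylated peaks with PHF6 was 3.03% (1.77 to 4.81) where no other PHF6 summit lay within 50 kb and 39.0% (35.3 to 42.7) where there were 11 or more. Where 11 or more lay nearby, the share was 41.2% (36.4 to 46.2) of peaks with H3K27ac within 5 kb and 35.9% (30.3 to 41.7) of those farther away, so the intervals overlapped. Among these peaks the median gap to acetylation was 3.44 kb (2.64 to 4.47) for members and 3.96 kb (3.15 to 4.83) for peaks with neither. Where 6 to 10 lay nearby, the shares were 21.5% (16.7 to 26.9) and 13.0% (9.82 to 16.8), and the median gaps 4.37 kb (3.13 to 5.97) and 7.26 kb (6.35 to 8.45). Where 3 to 5 lay nearby, the shares were 12.2% (8.73 to 16.5) within 5 kb and 6.22% (4.54 to 8.29) farther away, intervals that did not overlap. With 1 or 2 the shares were 5.39% (2.72 to 9.44) and 3.42% (2.44 to 4.64). With 0 the shares were 10% (1.23 to 31.7) of only 20 peaks and 2.77% (1.56 to 4.53) of 541. Median gaps with 3 to 5 were 6.67 kb (4.30 to 12.5) for members and 10.9 kb (9.92 to 12.8) for peaks with neither. With 1 or 2 the median gaps were 22.7 kb (11.7 to 41.4) and 29.2 kb (26.7 to 31.9). With 0 others nearby they were 69.3 kb (33.4 to 119.9) for only 17 members and 119.5 kb (108.2 to 129.1) for 544 peaks with neither. Members thus had the shorter median gap at each PHF6 density, with intervals that overlapped in each set except that of 6 to 10. The part of PHF6 density in the gap over all peaks was not tested.

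The nearest H3K27ac peak of most members held PHF6, and it was lower than at peaks with neither where acetylation was near. The nearest one had a median height of 30 (interval 27 to 39) at members and 58 (53 to 67) at peaks with neither. Within 5 kb these medians were 27 and 94.5, and at 5 to 20 kb they were 39 and 137, but beyond 20 kb members had the higher one, 41 against 35. In surroundings with 11 or more other PHF6 summits they were 29 (26 to 40) and 60 (43 to 85), while with 0 others members again had the higher one, 64 (43 to 163) against 28 (25 to 32). PHF6 was present at the nearest H3K27ac peak of 477 members (91.2%, 88.4 to 93.5) and of 76.2% (74.8 to 77.6) of peaks with neither. For the 64 members whose own PHF6 peak reached H3K27ac, all within 2.47 kb of it, that PHF6 peak can account for this. At 5 to 20 kb the shares were 89.9% (83.6 to 94.3) and 79.1% (76.5 to 81.5), and beyond 20 kb 85.0% (77.0 to 91.0) and 71.6% (69.4 to 73.7). The share over all H3K27ac peaks is not given here. The nearest H3K27ac peak also overlapped an H3K27me3 peak for 95 members (18.2%, 15.0 to 21.7) and for 9.05% (8.15 to 10.0) of peaks with neither.

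PHF6 at the members lay somewhat more often on the acetylated side of the H3K27me3 summit. Without the PHF6 peaks that reached acetylation it lay about equally on either side, a choice that itself bears on the sides. The nearest overlapping PHF6 summit lay toward the nearest H3K27ac peak in 302 of 522 members whose summits did not coincide (57.9%, 53.5 to 62.1). Within 1 kb of H3K27ac the share was 71.3% (61.4 to 79.9). Without members whose PHF6 peak also overlapped H3K27ac it was 53.5% (48.8 to 58.1) of 458 over all distances and 51.1% (35.8 to 66.3) of 45 within 1 kb. Peaks with neither, where the nearest PHF6 peak lay within 5 kb, had it, on H3K27ac or off it, on the acetylated side in 93.3% (89.1 to 96.2) of 223 cases within 1 kb of H3K27ac and in 81.0% (77.5 to 84.2) of 548 at 1 to 5 kb, but in 46.9% (40.6 to 53.2) at 5 to 20 kb and 53.5% (46.8 to 60.1) beyond. These shares include PHF6 peaks that lay on the H3K27ac peak itself. With only PHF6 peaks off H3K27ac considered, the shares at peaks with neither were 33.9% (21.8 to 47.8) of 56 within 1 kb and 23.8% (17.8 to 30.6) of 181 at 1 to 5 kb. This choice removes PHF6 peaks mainly from the acetylated side, so the lower shares are in part set by it and show no preference for the far side. The same limit holds for the members without PHF6 peaks on H3K27ac.

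**Figure D3:**
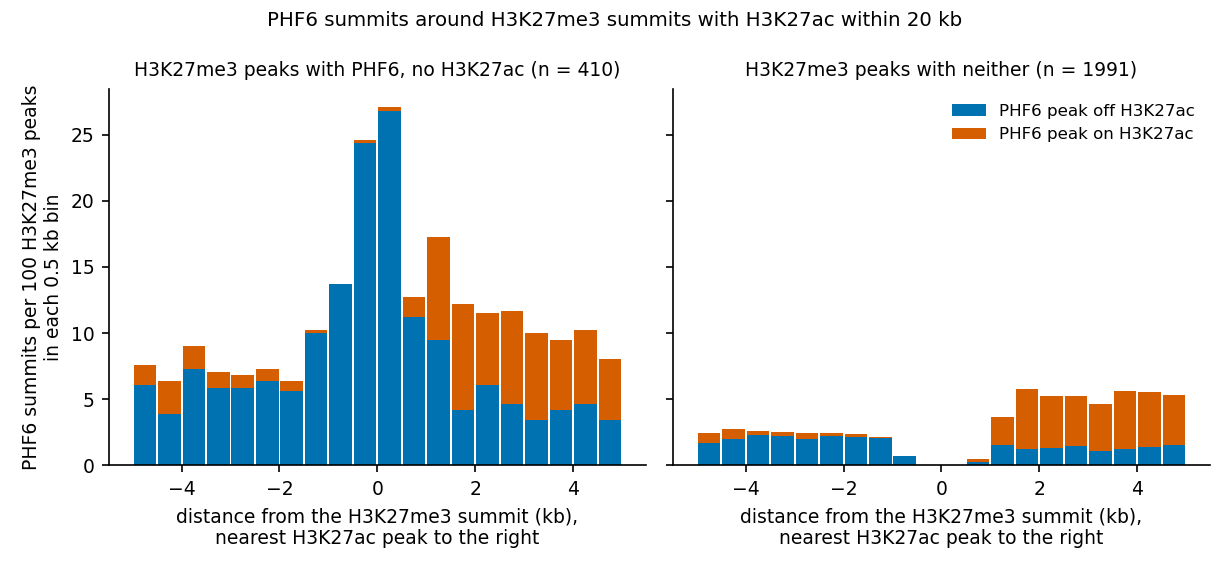
The bars count PHF6 summits per 100 H3K27me3 peaks in bins of 0.5 kb (y axis) by distance from the H3K27me3 summit in kb (x axis), with the nearest H3K27ac peak to the right, for 410 members and 1991 peaks with neither that have H3K27ac within 20 kb. Members show a peak at the centre, which the rule requires, with 24.6 and 27.1 summits per 100 peaks in the bins left and right of it, and peaks with neither show 0 there, also by the rule.

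Members more often stood in groups of H3K27me3 peaks. With neighbouring H3K27me3 peaks merged into regions wherever the gap was 5 kb or less, 221 of 523 members (42.3%, 38.0 to 46.6) lay in a region of 2 or more peaks, against 30.2% of all H3K27me3 peaks, 28.4% of peaks with neither and 32.1% (29.1 to 35.3) of peaks with both. For regions of 3 or more peaks the shares were 23.1% of members and 14.2% (13.1 to 15.4) of peaks with neither. In the widest group the share in regions of 2 or more was 46.1% (39.5 to 52.8) of members and 30.2% (27.6 to 32.9) of peaks with neither. In the middle group the shares were 41.1% (34.1 to 48.5) and 30.8% (28.2 to 33.4). In the narrowest they were 35.9% (26.7 to 46.0) and 24.7% (22.4 to 27.2), with intervals that overlapped. With H3K27ac within 5 kb the shares were 53.3% (47.2 to 59.4) and 43.0% (39.8 to 46.3), and farther away 30.3% (24.7 to 36.4) and 23.7% (22.1 to 25.3). Grouped by the number of other PHF6 summits within 50 kb, the intervals of members and of peaks with neither overlapped in all 5 sets, and the order was not the same in each. With 11 or more the shares were 49.8% (43.7 to 55.9) of members and 44.7% (39.8 to 49.5) of peaks with neither, with 6 to 10 they were 40.7% and 35.0%, and with 3 to 5 they were 36.7% and 27.9%. With 1 or 2 members were lower, at 16% (7.17 to 29.1) against 24.2% (21.8 to 26.6), and with 0 they were at 35.3% (14.2 to 61.7) against 20.4%. Members thus had the higher share in each set except that of 1 or 2. The sets are small, with 17 members at 0 and 269 at 11 or more. Overlap of their intervals cannot show that the difference is absent at like PHF6 density. The part of that density in the difference over all peaks was not tested.

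The members fell in 459 joined regions, of which 302 were a single peak and 157 held other H3K27me3 peaks. At least 2 members shared a region in 51 cases, and 16 regions consisted of members only. A peak with neither stood beside a member in 91 regions, which allows a comparison within 1 neighbourhood. There the members were wider on average in 59 regions and narrower in 32, with a median difference of 152 bp (31 to 255). H3K27me3 heights were higher at the members in 44 regions, lower in 44 and equal in 3. In regions of 3 or more peaks, 57 of 121 members (47.1%, 38.0 to 56.4) were at an end of the region, as were 50.5% (46.1 to 54.8) of peaks with neither.

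The joined region with the most members lay on chromosome 17 at 57343258 to 57361909 (qD). It held 11 H3K27me3 peaks over 18.7 kb, 5 of them members, with 4 PHF6 peaks and 0 H3K27ac peaks, and the nearest acetylated peak was 24.1 kb away. H3K27me3 heights of the 5 members were 76, 43, 41, 30 and 16 in order of position, and PHF6 heights were 24, 17, 17, 18 and 30. A single PHF6 peak touched both of the members of heights 43 and 41. At the last, the lowest in trimethylation and the highest in PHF6, the summits were 11 bp apart.

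A second region on chromosome 17, at 34865120 to 34871742 (qB1), consisted of 4 members over 6.62 kb, bound by 3 PHF6 peaks, and lay 47.6 kb from acetylation. Its H3K27me3 heights were 23, 23, 15 and 12, while PHF6 height was 21 at the first 2 members and 33 at the last 2. The region on chromosome 2 at 35137672 to 35163478 (qB) had 13 H3K27me3 peaks, of which 4 were members, 2 also held H3K27ac and 7 had neither. Members there had H3K27me3 heights of 45, 24, 55 and 51, below the highest of the other peaks at 95, and the last had its 2 summits 1 bp apart with PHF6 at height 19. On chromosome 8 at 13465097 to 13475302 (qA1.1), 4 members and no other H3K27me3 peak spanned 10.2 kb, with 5 PHF6 peaks of heights 17 to 19, 18.3 kb from acetylation. On chromosome 4 at 139379398 to 139389757 (qD3), 3 members of heights 18, 21 and 20 stood between H3K27ac peaks, with gaps of 0.935, 0.707 and 0.344 kb, beside 2 H3K27me3 peaks that were acetylated. It was 1 of 4 regions with 3 members and is given because its members had the largest summed width of these.

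**Figure D4:**
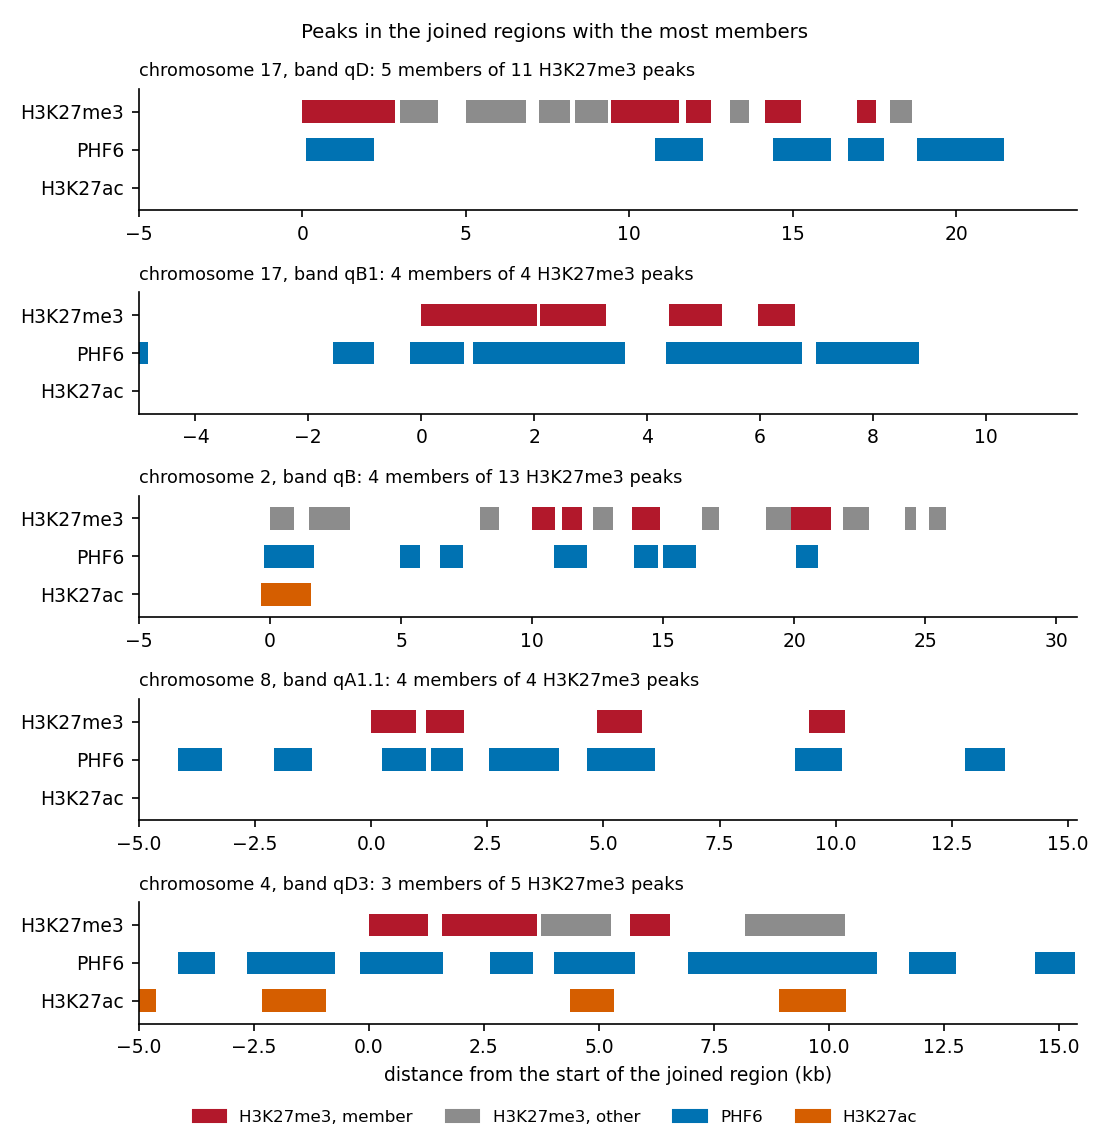
Each panel maps the peaks of the 3 lists along 1 of 5 joined regions with the most members (ties by summed member width), with distance in kb from the start of the region on the x axis and bars as long as the peaks. Members are red and other H3K27me3 peaks grey. In 3 of the regions no H3K27ac peak is drawn, and each red bar is touched by a PHF6 peak, as the rule requires.

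At the other extreme were members far from any acetylation. The farthest lay on chromosome 17 at 82809110 to 82810384 (qE3), 670.2 kb from an H3K27ac peak and with 0 other PHF6 or H3K27me3 summits within 50 kb. It had an H3K27me3 height of 29 and a PHF6 height of 19. The next were on chromosome 8 at 44876273 to 44876874 (qB1.1, 442.2 kb away), chromosome 4 at 14360790 to 14361630 (qA1, 391.0 kb), chromosome 9 at 19732176 to 19733038 (qA3, 304.4 kb) and chromosome 11 at 46541074 to 46542327 (qB1.1, 222.6 kb). Their PHF6 heights were 23, 18, 19 and 20, and the summits were 6, 40, 140 and 625 bp apart. These 5 were picked after their distances were seen. Over all 21 members beyond 100 kb the median PHF6 height was 21 (interval 19 to 24), against 26 (23 to 28) for those within 1 kb, of which 56 had a PHF6 peak that reached H3K27ac.

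Members were unevenly spread over the chromosomes. Chromosome 11 held 65, or 0.533 per Mb (0.412 to 0.680), against 0.212 per Mb (0.194 to 0.230) over chromosomes 1 to 19. Chromosome 17 followed with 0.409 per Mb (0.291 to 0.560), and chromosome 18 had the lowest density, 6 members or 0.0661 per Mb (0.0243 to 0.144). All non-acetylated H3K27me3 peaks, from which members are drawn, had the same extremes: 3.13 per Mb for number 11, 1.01 for number 18 and 1.71 throughout. Member density per Mb thus includes the uneven spread of these peaks and is not by itself a result about members. The share of non-acetylated H3K27me3 peaks that held PHF6 ran from 6.10% (3.45 to 9.86) on chromosome 9 to 20.5% on chromosome 17. Chromosome 11, with 52.6 PHF6 peaks per Mb, stood at 17.1% (13.4 to 21.2), and chromosome 3, with 16.7, at 7.69% (4.94 to 11.3). Chromosome 9 had 31.6 PHF6 peaks per Mb, close to the 31.0 of all, so the order of chromosomes was not that of PHF6 density throughout.

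**Figure D5:**
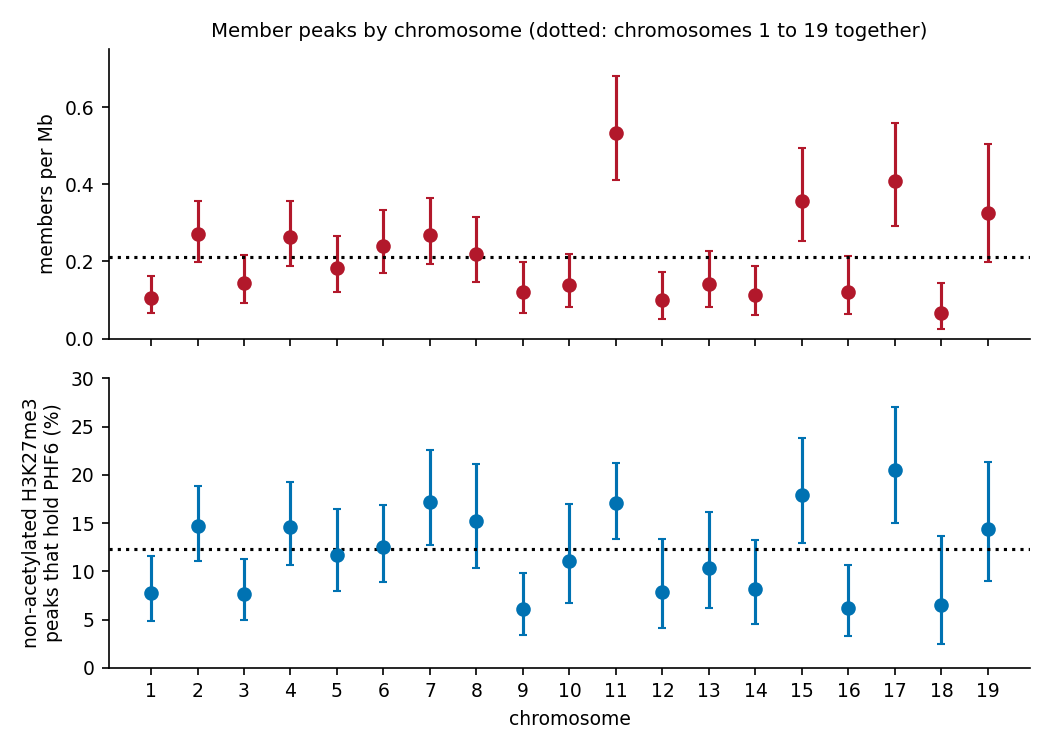
The upper panel gives members per Mb and the lower panel the percentage of non-acetylated H3K27me3 peaks that hold PHF6, by chromosome, with 95% exact intervals and dotted lines at the values over chromosomes 1 to 19 (0.212 per Mb and 12.3%). Chromosome 11 lies highest in the upper panel and chromosome 17 in the lower.

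By cytogenetic band, 282 members (53.9%, 49.5 to 58.3) lay in light bands, which are gene-rich and make up 41.2% of these chromosomes, and 71 (13.6%, 10.8 to 16.8) in the darkest bands, which make up 31.2%. Peaks with neither were at 45.4% (43.7 to 47.0) and 24.3% (22.9 to 25.7), and peaks with both at 50.9% (47.6 to 54.2) and 15.4% (13.2 to 17.9). The bands with the most members were 11qD with 24 members among 76 non-acetylated H3K27me3 peaks, 17qB1 with 17 of 58 and 11qB1.3 with 12 of 39. Band 15qF3, only 1.82 Mb long, held 10 of 49, and 8qA1.1, a dark band, held 9 of 21.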

How the data were processed

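The values are from 3 ChIP libraries (PHF6, H3K27ac and H3K27me3) of mouse pre-B leukemia cells. The submitters' processing notes list MACS 1.4.0, Bowtie2 and SAMtools and the build mm9, but no options. The file names give a threshold of 1e-6 and mark the PHF6 and H3K27ac lists, not the H3K27me3 list, as called without local lambda, a difference in calling between the marks. The score deposited per peak started at 60 in each list, 10 times the negative log10 of that threshold, and it was 3100 at 3 members. The signal deposited per summit was a whole-number height of at most 400. How the input entered peak calling is not stated by the labels or notes.

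Peaks on chromosomes 1 to 19 were intersected with Python 3.11.15 (numpy 2.4.6, pandas 2.3.3, scipy 1.17.1, matplotlib 3.10.9) at 1 bp or more. Gaps count the bases between peak edges. Positions are 1-based. R 4.3.3 supplied mm9 bands (circlize 0.4.16) and lengths of chromosomes (GenomeInfoDb 1.38.1). Overlap and interval code was checked on simulated peaks. Named peaks are the 10 tallest H3K27me3 and the 10 tallest PHF6 summits at members, the 5 widest members, the 5 joined regions with the most members (ties by summed member width) and the 5 peaks on each side of the rule's limits. Members, lists and rules were chosen with earlier results of these data known. Depth is unknown. Sequence was not used here.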

Additional observations from a re-analysis of the deposited data

How the results depend on the processing

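Each list rests on 1 library of unknown read depth, and local lambda was switched off for PHF6 and H3K27ac only, so a missing peak does not show that a protein or mark was absent. The alternative without PHF6 peaks on H3K27ac was chosen after seeing the data. Of 82 values recomputed, 46 stayed within the interval of the reported value, or within 1.5 times the count, and 36 moved; where the setting does not itself fix the value, the cause was not tested. No paired analysis was possible because no antibody was used on more than 1 library.

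The number of members (523) was 254 at a score of at least 100 in all lists, 212 at that score with every H3K27ac peak kept, and 251 without H3K27ac within 5 kb. The share of non-acetylated peaks with PHF6 (12.3%) was 10.1% with 50% of the shorter peak, 10.2% with a summit inside the other peak, 10.1% at the score minimum with every H3K27ac peak kept, 10.8% and 8.23% without H3K27ac within 1 and 5 kb, 17.9% with PHF6 within 500 bp and 11.0% without PHF6 peaks on H3K27ac, which left 459 members. The 2 score settings gave H3K27me3 heights of 18 and 18 (16), PHF6 heights of 24 and 24 (23), widths of 1265.5 and 1261.5 bp (996), summit distances of 523.5 and 590.5 bp (421) and shares in joined regions of 32.7% and 34.9% (42.3%). With all 3 lists at that score the gap to H3K27ac was 7.20 kb (4.80). Summit distance was 270.5 bp with the 50% rule, 286.5 bp with the summit rule, 319 and 304 bp without H3K27ac within 1 and 5 kb, 808.5 bp with PHF6 within 500 bp and 311 bp without PHF6 peaks on H3K27ac. The gap to H3K27ac was 7.31 and 17.9 kb without H3K27ac within 1 and 5 kb, by construction, 3.94 kb with PHF6 within 500 bp and 6.00 kb without PHF6 peaks on H3K27ac. PHF6 height was 21 without H3K27ac within 5 kb and 24 with PHF6 within 500 bp. The share in joined regions was 37.2% and 30.3% without H3K27ac within 1 and 5 kb and 34.0% with a joining gap of 2 kb.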
